A study of Mus musculus with 10 samples.

Results

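The genes described are 96 zinc finger genes of the mouse, 74 with Zfp symbols, 14 with Zbtb symbols, 6 with Zkscan symbols and 2 with Zscan symbols. They were taken by symbol from the upper lines of an expression table of 20494 lines, where each symbol stands beside its own values. Each had at least 1 TPM in 2 or more of the 10 libraries. Of 105 matching symbols in those lines, 9 did not reach that level, and 1 further symbol was set aside by the rule. The highest of the 9 was Zfp108, with 1 library at 1 TPM or more and 0.931 TPM in the next, and the lowest member was Zkscan2, whose second-highest library had 1.02 TPM. Zkscan2 was also the 1 member that reached the level through 1 condition alone, LCDM. A further 349 matching symbols lie in the lower lines and were not analysed here. TPM, the unit of the table, is a level per transcript length, scaled to the total of the library, so levels can be compared between genes.

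The RNA came from an embryonic stem cell line labelled with the strain C57BL6X129S6F1, in 5 culture conditions with 2 libraries each. The stated aim was to examine pluripotency genes, retroviruses and epigenetic regulators in a study of genome stability. All media held 1000 IU of mouse LIF (mLIF), and 4 of them were serum-free N2B27 medium with the GSK3 inhibitor Chir99021 at 3 µM. Of these, 2iL added 1 µM PD0325901, which inhibits the kinase MEK, and A2iL added 1.5 µM CGP77675, which inhibits Src kinases, both with feeder cells. LCDM added Dim and Mih at 2 µM each, with feeder cells, and 2iL-F was the 2iL medium without them. The 5th condition, SL, was KO-DMEM with 15% FBS (serum) and feeder cells. The libraries of a condition are numbered 3 and 5, and the labels do not say whether they came from separate cultures. The spread behind each p-value may therefore be technical.

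Most genes of these families code for proteins with C2H2 zinc fingers. These small folds hold a zinc ion and in tandem can read DNA sequence. In the largest group the fingers follow a KRAB domain, which recruits the corepressor Trim28 (KAP1) and with it the histone methyltransferase Setdb1 and heterochromatin proteins, and many of its genes are known to silence retroelements in embryonic stem cells. Zbtb proteins carry a BTB domain, through which they pair and bind other corepressors, and Zscan and Zkscan proteins carry a SCAN domain, which binds other SCAN proteins. A few Zfp symbols belong to other folds, such as the CCCH fingers of Zfp36l1, which bind messenger RNA.

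The libraries summed to between 70.998% and 72.96% of the full TPM scale over the listed lines, and depth is unknown because TPM hold no read numbers. The 96 genes together took 1198 to 1360 TPM of a library. Over these genes the libraries of a condition correlated at r = 0.992 to 0.997, and 92.7% to 100% of the genes were within 1.5-fold between both libraries, with 2iL at the low end. All 8 stem cell markers were at 1 TPM or more in every library. The feeder labels did not match the fibroblast markers: 22 markers summed to 854 and 900 TPM in the libraries labelled 2iL (with feeders), of which Sparc and Fn1 gave 436 and 386 TPM in replicate 3, with 6 and 7 markers at 0 and Lox, Postn, Dcn and Acta2 at 0 in both. They summed to 2718 and 2655 TPM in A2iL, 1051 and 1030 TPM in LCDM, 4631 and 4449 TPM in the libraries labelled 2iL-F (without feeders) and 4820 and 5056 TPM in SL, and all 22 were at 1 TPM or more in each of these 8 libraries. The names 2iL and 2iL-F below are those of the labels. In such bulk RNA, fewer cells of a type and less RNA per cell cannot be told apart.

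The zinc finger genes were present at low levels. The median of their mean levels over 10 libraries was 5.94 TPM, with an interquartile range of 2.62 to 12.4 TPM, against a median of 15.97 TPM for the other 7866 tested lines of the named part. The highest was Zfp36l1, at 134 TPM, followed by Zfp57 (117 TPM), Zfp106 (94.2 TPM), Zscan10 (71.7 TPM), Zfp385a (55.8 TPM) and Zfp207 (49.2 TPM). The 14 Zbtb genes had a median of 9.70 TPM, led by Zbtb8a at 27.05 TPM, and the 74 Zfp genes one of 5.24 TPM. A KRAB domain pattern was found in the translated GENCODE M21 sequences of 35 of the 95 genes that could be matched. Their median level was 2.88 TPM, with Zfp57 far above the rest, against 9.88 TPM for the 60 genes without the pattern. They also held more fingers, with a median of 12 C2H2 motifs against 5, and the highest number was 36, in Zfp142. No C2H2 motif was found in Zfp36l1, Zfp330, Zfp185 and Zfp839. The KRAB pattern is a short sequence search, and it marked none of the 6 Zkscan genes. Genes without it may still code for a KRAB domain.

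**Figure D1:**
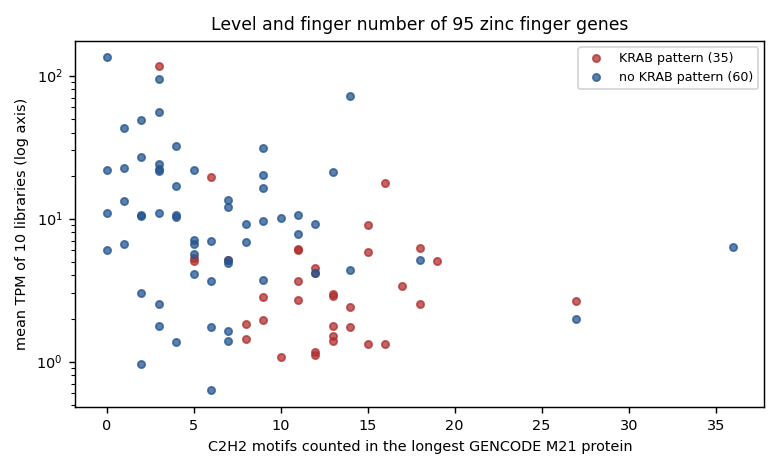
Mean TPM over the 10 libraries (vertical log axis) against the number of C2H2 motifs in the protein (horizontal axis), with 1 point per gene for the 95 genes matched to GENCODE M21. Genes with the KRAB pattern (red) lie mostly below 10 TPM and above 5 motifs, with a median of 2.88 TPM, and those without it (blue) have a median of 9.88 TPM.

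Levels of 78 of the 96 genes differed among the 5 conditions (81.2%; limma F test on log2(TPM + 1), adjusted p below 0.05 by Benjamini-Hochberg over all 14578 tested lines), where 90.1% of all tested lines passed. The share was 71.4% of the 35 genes with the KRAB pattern and 86.7% of the 60 without it. Most changes were small: the ratio of the highest to the lowest condition mean was below 1.5 in 31 genes, from 1.5 to below 2 in 42, from 2 to below 4 in 16 and 4 or more in 7, with a median of 1.64. The highest level was in 2iL for 34 genes, A2iL for 9, LCDM for 15, 2iL-F for 16 and SL for 22. The lowest was in 2iL for 25 genes, A2iL for 7, LCDM for 14, 2iL-F for 19 and SL for 31. SL was thus the highest condition for 22.9% of these genes, against 32.7% of the other named lines, and 2iL for 35.4%, against 28.4%; these shares were not tested.

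Set against SL, zinc finger genes were called in both directions in every medium. Percentages of all 14578 tested lines called in a comparison are given with the counts, and the 4 comparisons share the same SL libraries. In 2iL, 32 genes were higher and 28 lower than in SL (62.5% called; all lines 77.7%, with 36.7% higher and 40.9% lower), and 46 of the 60 calls held with each of the 10 libraries left out in turn. In A2iL, 22 were higher and 16 lower (39.6%; all lines 53.8%, with 21.9% higher and 31.9% lower), and 24 of 38 calls held. In LCDM, 33 were higher and 22 lower (57.3%; all lines 65.9%, with 32.2% higher and 33.7% lower), and 38 of 55 held. In 2iL-F, 25 were higher and 24 lower (51% against 65.4% of all lines, of which 28.1% were higher and 37.3% lower), and 30 of 49 held. The direction split depended on scaling: with quantile normalisation the higher share of the calls was 69.4% in 2iL (53.3% as deposited) and 65.9% in A2iL (57.9%). It was 69.5% in LCDM (60%) and 60.7% in 2iL-F (51%). Over all lines this share was 52.5% in 2iL (47.3% as deposited) and 49.8% in A2iL (40.7%), and it was 54.6% in LCDM (48.9%) and 47.8% in 2iL-F (43%). With median-of-ratios scaling the share was 57.4% in 2iL (all lines 48.7%) and 65% in A2iL (49.8%). In LCDM it was then 59.6% (48.3%), and in 2iL-F it was 57.4% (48.5%). When the 4 libraries of 2iL and 2iL-F were left out of the fit, an alternative chosen after seeing the data, A2iL had 24 genes higher and 19 lower than SL, and LCDM had 33 higher and 25 lower.

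**Figure D2:**
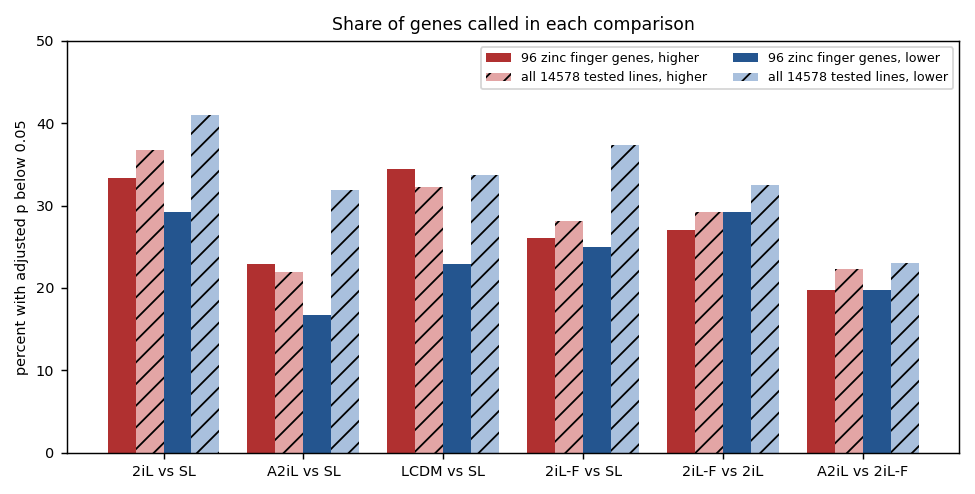
Percent of genes with an adjusted p below 0.05 (vertical axis, from 0) in 6 comparisons, for the 96 zinc finger genes (plain bars) and all 14578 tested lines (hatched bars), split into higher (red) and lower (blue) in the condition named first. In 2iL against SL, 62.5% of the zinc finger genes were called in either direction, against 77.7% of all lines.

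Medians of the change were near 0. Against SL, the median log2 change of the 96 genes was 0.07 in 2iL (all tested lines -0.04) and 0.01 in A2iL (-0.07). It was 0.06 in LCDM (-0.00029) and 0.02 in 2iL-F (-0.08). Changes of at least 1 on the log2 scale were few. In 2iL against SL, 5 genes were higher by that much and 9 lower (all lines 12.9% and 16.5%). In A2iL there were 0 in either direction (3.73% and 4.75%), and in LCDM 0 higher and 4 lower (6.03% and 10.2%). In 2iL-F against SL there were 1 higher and 2 lower (7.74% and 8.39%). In 2iL-F against 2iL, 3 were higher and 3 lower (8.44% and 4.68%), and in A2iL against 2iL-F 1 was higher and 0 lower (3.86% and 4.28%). Each change below is the limma difference of log2(TPM + 1) with its SE, and it understates the change of genes at low TPM. The p-values are adjusted over all tested lines.

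**Figure D3:**
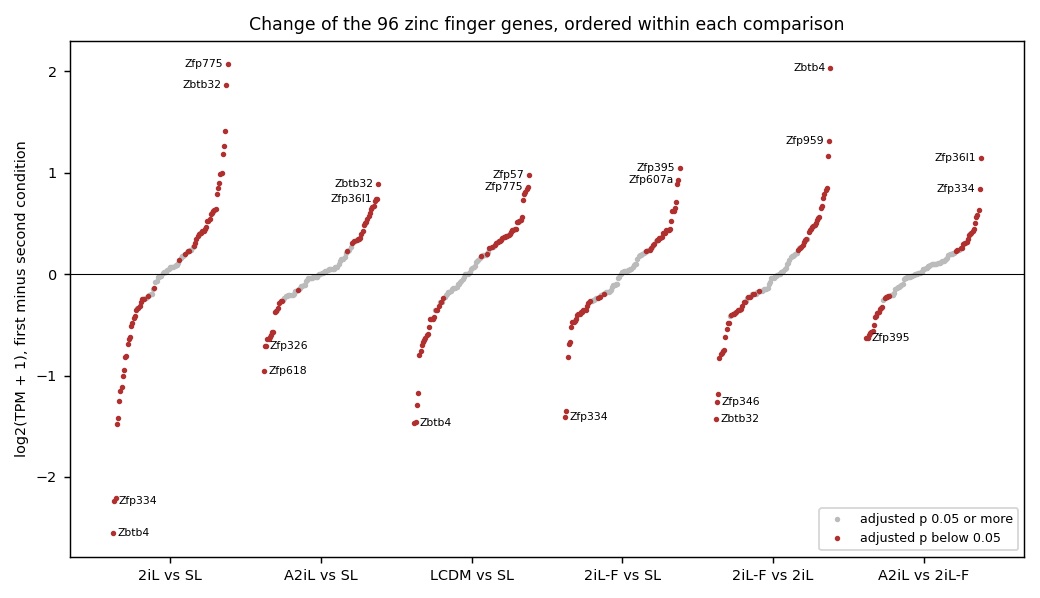
Difference of log2(TPM + 1) between the condition named first and the one named second (vertical axis) for each of the 96 genes, ordered by size within each of the 6 comparisons on the horizontal axis. Red points have an adjusted p below 0.05, grey points do not, and the genes at the ends are named. Zbtb4 is lowest and Zfp775 highest in 2iL against SL, at -2.56 and 2.07.

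The genes that stood furthest apart fell into a set lowest in 2iL and highest in SL, with Zbtb4, Zfp334 and Zfp618 at its head, and a set highest in 2iL and lowest in SL, with Zfp775 and Zbtb32. Zfp618 passed the filter through A2iL and SL alone. Promoter sequences of these 5 genes are shown because they carry the strongest changes in each direction. Each is the 250 bases before the first start that RefSeq lists for the gene, build GRCm38.p6 (mm10), 5′ to 3′ on the gene's strand, with CpG dinucleotides in capitals.
Zbtb4, chr11:69765662-69765911, plus strand: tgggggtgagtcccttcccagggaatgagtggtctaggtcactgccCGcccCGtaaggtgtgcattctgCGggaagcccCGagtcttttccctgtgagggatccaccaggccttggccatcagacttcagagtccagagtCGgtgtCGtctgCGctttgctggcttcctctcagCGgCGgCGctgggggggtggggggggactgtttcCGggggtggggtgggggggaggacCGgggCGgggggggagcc
Zfp334, chr2:165388260-165388509, minus strand: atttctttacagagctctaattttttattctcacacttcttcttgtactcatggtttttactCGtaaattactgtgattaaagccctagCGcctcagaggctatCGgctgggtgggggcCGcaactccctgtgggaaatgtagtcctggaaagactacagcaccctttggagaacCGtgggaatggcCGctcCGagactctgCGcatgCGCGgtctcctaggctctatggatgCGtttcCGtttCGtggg
Zfp618, chr4:62965317-62965566, plus strand: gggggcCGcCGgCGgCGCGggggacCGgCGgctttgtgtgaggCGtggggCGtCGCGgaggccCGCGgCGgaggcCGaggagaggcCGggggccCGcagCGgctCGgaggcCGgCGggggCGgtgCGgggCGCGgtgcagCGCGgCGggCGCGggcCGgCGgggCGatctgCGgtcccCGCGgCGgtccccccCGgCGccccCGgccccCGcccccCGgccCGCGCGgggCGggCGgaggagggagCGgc
Zfp775, chr6:48601757-48602006, plus strand: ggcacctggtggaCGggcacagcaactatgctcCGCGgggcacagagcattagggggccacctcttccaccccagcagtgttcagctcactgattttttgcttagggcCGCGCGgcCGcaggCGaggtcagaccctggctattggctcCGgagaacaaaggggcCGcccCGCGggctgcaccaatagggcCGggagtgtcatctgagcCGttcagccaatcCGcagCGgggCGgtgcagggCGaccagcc
Zbtb32, chr7:30598910-30599159, minus strand: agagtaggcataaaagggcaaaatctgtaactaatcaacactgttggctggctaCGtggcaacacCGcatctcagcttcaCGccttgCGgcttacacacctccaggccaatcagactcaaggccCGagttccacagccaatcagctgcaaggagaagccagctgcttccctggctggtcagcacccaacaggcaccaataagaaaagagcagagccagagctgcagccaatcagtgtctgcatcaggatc
The 3 promoters of the first set held 13 CpG (Zbtb4), 13 (Zfp334) and 48 (Zfp618), and those of the second 18 (Zfp775) and 5 (Zbtb32). CCAAT, the box bound by the factor NF-Y, was 1 of 5 sequences searched, each on both strands. It occurred 3 times before Zfp775, 4 times before Zbtb32 and 0 times before the other 3 genes. Over all 17492 protein-coding promoters in the table, 3.64% held it 3 or more times in these 250 bases, as did 5.19% of the 77 zinc finger promoters that could be matched. With 50 bases after the start included, the 77 promoters had a median of 17 CpG, against 13 for all protein-coding promoters, and 66.2% had an observed over expected CpG ratio of at least 0.6, against 48.3%. On either strand, CCGGAA, a core bound by ETS factors, was in 36.4% of them, against 19.1% of all, GGGCGG, the GC box, was in 55.8%, against 46.3%, and TATAAA, the TATA box, was in 5.19%, against 13.3%. CCAAT was in 44.2% against 39.0% and CACGTG, the E-box, in 9.09% against 7.90%. The 77 belong to genes that passed the level filter, while the protein-coding promoters were taken without one. The sets are therefore unlike, and these shares were not tested. In the 250 bases shown, GGGCGG occurred 2 times each before Zbtb4 and Zfp775, 4 before Zfp618 and 0 before Zfp334 and Zbtb32. In the 300-base window CCAAT occurred 3, 0 and 1 times for Zfp939, Zfp839 and Zfp263, also highest in 2iL and lowest in SL. For Zfp651, Zfp512b and Zfp142, lowest in 2iL and highest in SL, it occurred 1, 0 and 0 times. These matches are letters in a window and were not tested as sites.

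Zbtb4, a BTB protein that binds methylated CpG (chr11:69765912-69784023, plus strand in mm10), had 0.929 and 1.22 TPM in 2iL, 10.01 and 10.5 in A2iL and 3.17 and 3.61 in LCDM. Levels in 2iL-F were 8.29 and 6.72 TPM and those in SL 10.9 and 11.4 TPM. Both 2iL libraries were the lowest and both LCDM libraries the next, and neither overlapped the other conditions. Its change against SL was -2.56 ± 0.11 in 2iL, -1.47 ± 0.11 in LCDM and -0.52 ± 0.11 in 2iL-F (adjusted p at most 0.0029), while in A2iL it was -0.11 ± 0.11 (adjusted p = 0.42), which did not pass. The summed fibroblast markers were also lowest in 2iL and next in LCDM, and their part in the level of Zbtb4 was not tested. Between the other N2B27 media, the Zbtb4 mean was 10.3 TPM in A2iL against 7.51 TPM in 2iL-F, at 0.41 ± 0.11 (adjusted p = 0.015), a call that was lost without A2iL replicate 5 (adjusted p = 0.082) and without 2iL-F replicate 5 (adjusted p = 0.11). The other 2 readable genes of the list of methyl-CpG and heterochromatin BTB factors were not lower in 2iL. Zbtb24, a gene mutated in a human syndrome of centromere instability, was higher than in SL by 0.54 ± 0.09 in 2iL, 0.36 ± 0.09 in LCDM and 0.34 ± 0.09 in 2iL-F (adjusted p at most 0.007). Its mean was 8.196 TPM in 2iL, 7.12 TPM in LCDM and 7.003 TPM in 2iL-F, against 5.32 TPM in SL. In A2iL, with a mean of 6.93 TPM, Zbtb24 was higher by 0.33 (adjusted p = 0.012). That call was lost with only the libraries compared (adjusted p = 0.051). Zbtb48, which binds telomere repeats, averaged 11.9 TPM in 2iL, 12.4 in LCDM, 7.88 in 2iL-F and 9.17 in SL. It was higher by 0.34 ± 0.07 in 2iL and 0.40 ± 0.07 in LCDM (adjusted p at most 0.0025) than in SL.

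Zbtb32, a repressor described in lymphocytes (chr7:30589681-30598909, minus strand), was the BTB gene with the largest increase, with 22.5 and 21.04 TPM in 2iL, 10.7 and 10.4 in A2iL and 9.82 and 10.1 in LCDM. In 2iL-F it was at 7.96 and 7.002 TPM and in SL at 4.71 and 5.83 TPM. The 4 N2B27 conditions all lay above SL with no overlap, and the 2iL mean was 4.13-fold that of SL. The change was 1.87 ± 0.10 in 2iL, 0.81 ± 0.10 in LCDM, 0.89 ± 0.10 in A2iL and 0.44 ± 0.10 in 2iL-F (adjusted p at most 0.0034). Zbtb17 (Miz-1), the partner through which Myc represses genes, was higher than in SL by 0.63 ± 0.07 in 2iL, 0.54 ± 0.07 in LCDM and 0.41 ± 0.07 in 2iL-F (adjusted p at most 0.00098). Zbtb43 rose against SL by 0.61 ± 0.06 in 2iL, 0.51 ± 0.06 in LCDM, 0.35 ± 0.06 in A2iL and 0.34 ± 0.06 in 2iL-F (adjusted p at most 0.0021).

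Other BTB genes separated the inhibitor media from each other. Zbtb7a (LRF), a repressor of glycolysis and fetal globin genes, had 16.9 and 16.9 TPM in 2iL, 32.1 and 31.4 in A2iL and 22.7 and 23.2 in LCDM. The values were 20.7 and 19.5 TPM in 2iL-F and 18.1 and 19.2 TPM in SL. A2iL stood alone at the top, 0.74 ± 0.05 (adjusted p = 9.4e-06) above SL and 0.63 ± 0.05 (adjusted p = 2.5e-05) above 2iL-F. Zbtb7b (ThPOK), which sets the CD4 T-cell fate, had 31.5 and 27.3 TPM in 2iL, 26.9 and 27.2 in A2iL and 12.3 and 14.1 in LCDM. Both 2iL-F libraries gave 31.4 and 27.6 TPM, and SL gave 22.04 and 21.1 TPM. LCDM lay below every other library, at -0.67 ± 0.09 (adjusted p = 0.00024) against SL, whereas 2iL and 2iL-F were above SL by 0.43 ± 0.09 in 2iL and 0.43 ± 0.09 in 2iL-F (adjusted p at most 0.0032). Zbtb1, needed for lymphocyte development, was lower than in SL, at -0.68 ± 0.10 in 2iL, -0.63 ± 0.10 in LCDM and -0.62 ± 0.10 in A2iL (adjusted p at most 0.0011). Its mean was 3.19 TPM in 2iL, 3.37 TPM in A2iL and 3.35 TPM in LCDM, against 5.71 TPM in SL. Zbtb8a was lowest in A2iL, at 19.7 and 20.2 TPM against 28.3 and 32.1 TPM in SL (-0.57 ± 0.08 (adjusted p = 0.00057)). Of the 8 tested BTB genes of lineage and growth, 4 were higher and 3 lower than in SL in 2iL (all lines 36.7% and 40.9%), and 4 and 2 in A2iL (21.9% and 31.9%). The counts were 4 and 2 in LCDM (32.2% and 33.7%) and 4 and 0 in 2iL-F (28.1% and 37.3%).

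Among the 35 genes with the KRAB pattern, 8 were higher and 10 lower than in SL in 2iL (51.4% called; all lines 77.7%), and 7 and 3 in A2iL (28.6%; 53.8%). The counts were 7 and 7 in LCDM (40%; 65.9%) and 8 and 6 in 2iL-F (40%; 65.4%). Zfp57, which binds methylated imprinting control regions and keeps their methylation (chr17:37001163-37010635, plus strand), was the most abundant of them, with 91.1 and 96.1 TPM in 2iL, 124 and 122 in A2iL and 167 and 168 in LCDM. The 2iL-F libraries had 117 and 112 TPM and the SL libraries 87.1 and 82.2 TPM. Both LCDM libraries were above all others, and A2iL and 2iL-F lay between LCDM and the pair of 2iL and SL. Against SL it rose by 0.98 ± 0.05 in LCDM, 0.54 ± 0.05 in A2iL and 0.43 ± 0.05 in 2iL-F (adjusted p at most 6.5e-05). In 2iL the change of 0.14 ± 0.05 (adjusted p = 0.022) was lost without SL replicate 5, at 0.10 (adjusted p = 0.14), and without 2iL replicate 5, at 0.11 (adjusted p = 0.086). The other gene of the list of imprint and retroelement KRAB factors that could be read was Zfp354a, with 0.9205 TPM in 2iL and 1.74 TPM in SL. Of its 50-base words, 25.1% also occur in Zfp354b, so its reads may be shared.

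Zfp334 (chr2:165374264-165388259, minus strand) changed most among the genes with the KRAB pattern. It had 0.331 and 0.341 TPM in 2iL, 3.61 and 2.88 in A2iL and 1.79 and 1.79 in LCDM. Levels in 2iL-F were 1.32 and 1.43 TPM and those in SL 4.94 and 5.65 TPM. All 4 N2B27 conditions lay below SL without overlap, with changes of -2.23 ± 0.11 in 2iL, -1.17 ± 0.11 in LCDM, -0.57 ± 0.11 in A2iL and -1.41 ± 0.11 in 2iL-F (adjusted p at most 0.0021). With a pseudocount of 0.1 the value in 2iL was -3.62. Zfp959 stood apart in 2iL, with 0.537 and 0.841 TPM in 2iL, 3.48 and 3.77 in A2iL and 2.86 and 2.92 in LCDM. In 2iL-F it was at 3.32 and 3.03 TPM and in SL at 3.41 and 4.01 TPM. Its difference from SL was -1.48 ± 0.11 (adjusted p = 2.9e-06), or -2.29 with a pseudocount of 0.1. Of its 50-base words 22.2% are shared with Zfp119b. Zfp719 had 1.04 and 1.24 TPM in 2iL and 3.42 and 4.904 TPM in SL, at -1.25 ± 0.15 (adjusted p = 6.9e-05). Zfp251 was lower in 2iL, at 3.74 and 4.11 TPM against 7.53 and 7.803 TPM in SL (-0.82 ± 0.10 (adjusted p = 6.3e-05)).

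KRAB genes that were higher included Zfp655, with 26.2 and 33.98 TPM in 2iL, 20.7 and 19.8 in A2iL and 17.99 and 16.7 in LCDM. The values were 16.1 and 17.9 TPM in 2iL-F and 12.3 and 12.8 TPM in SL. Its change was 1.18 ± 0.11 in 2iL and 0.65 ± 0.11 in A2iL (adjusted p at most 0.0014) against SL. Zfp607a was highest in 2iL-F, with 2.45 and 2.23 TPM in 2iL, 3.099 and 2.91 in A2iL and 2.22 and 2.31 in LCDM. Both 2iL-F libraries gave 3.79 and 3.42 TPM, and SL gave 1.43 and 1.42 TPM. It rose against SL by 0.46 ± 0.08 in 2iL, 0.43 ± 0.08 in LCDM, 0.73 ± 0.08 in A2iL and 0.93 ± 0.08 in 2iL-F (adjusted p at most 0.0018), and with quantile normalisation the values were 0.82 in 2iL and 0.66 in LCDM. Of the 50-base words of Zfp607a, 7.77% also occur in other annotated genes, so its reads may be shared. Zfp7 was highest in A2iL, at 23.3 and 22.002 TPM against 14.8 and 15.01 TPM in SL (0.57 ± 0.06 (adjusted p = 5.3e-05)). Of its 50-base words, 16.85% also occur in another annotated gene, so its reads may be shared.

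The genes of the Trim28 corepressor and its partners, of which 21 could be read, changed in both directions. Of these 21, 5 were higher and 10 lower than in SL in 2iL (all lines 36.7% and 40.9%), and 4 and 9 in A2iL (21.9% and 31.9%). The counts were 6 and 8 in LCDM (32.2% and 33.7%) and 4 and 12 in 2iL-F (28.1% and 37.3%), so that lower calls outnumbered higher ones in each medium both in the list and over all lines. Their median log2 change was -0.16 in 2iL, -0.04 in LCDM, -0.16 in A2iL and -0.26 in 2iL-F, beside the medians of all lines given above. Trim28 itself had 599.6 and 599 TPM in 2iL, 713 and 699 in A2iL and 859 and 855 in LCDM. The 2iL-F libraries had 816 and 770.2 TPM and the SL libraries 860.2 and 839.8 TPM. This was -0.50 ± 0.04 in 2iL and -0.27 ± 0.04 in A2iL (adjusted p at most 0.00078) against SL. Setdb1 averaged 24.3 TPM in 2iL, 24.9 TPM in 2iL-F and 30.5 TPM in SL, at -0.32 ± 0.05 in 2iL and -0.28 ± 0.05 in 2iL-F (adjusted p at most 0.0016) against SL. Pphln1, a subunit of the HUSH silencing complex, was lower in all 4 media, at -0.87 ± 0.06 in 2iL, -0.83 ± 0.06 in LCDM, -0.97 ± 0.06 in A2iL and -0.87 ± 0.06 in 2iL-F (adjusted p at most 7.1e-06). The list also holds genes of DNA methylation, which went both ways in 2iL against SL. Those of the de novo methyltransferases Dnmt3a and Dnmt3b were at -3.39 ± 0.06 (adjusted p = 3.4e-10) and -4.55 ± 0.07 (adjusted p = 1.8e-10), and that of their cofactor Dnmt3l was at -4.57 ± 0.07 (adjusted p = 1.8e-10). Those of the maintenance methyltransferase Dnmt1 and its partner Uhrf1 were higher by 0.86 ± 0.05 (adjusted p = 4.3e-07) and 1.35 ± 0.04 (adjusted p = 1.7e-08).

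Of the pluripotency and early embryo factors, 3 could be read. Zscan10, a SCAN protein that works with Oct4 and Sox2 in embryonic stem cells (chr17:23600856-23611019, plus strand), had 46.8 and 45.3 TPM in 2iL, 79.8 and 75.3 in A2iL and 67.3 and 69.7 in LCDM. Levels in 2iL-F were 76.5 and 69.2 TPM and those in SL 90.5 and 96.5 TPM. It was highest in SL and lowest in 2iL, with no overlap of either with another condition. Its change against SL was -1.01 ± 0.06 in 2iL, -0.44 ± 0.06 in LCDM and -0.36 ± 0.06 in 2iL-F (adjusted p at most 0.00095). In A2iL it was -0.27 (adjusted p = 0.0063), and -0.23 without A2iL replicate 5. Zfp207 (BuGZ), a spindle protein, had 36.7 and 43.4 TPM in 2iL, 43.4 and 42.7 in A2iL and 42.9 and 39.9 in LCDM. In 2iL-F it was at 49.7 and 51.7 TPM and in SL at 70.4 and 71.2 TPM. The 4 N2B27 conditions lay below SL, at -0.81 ± 0.08 in 2iL, -0.76 ± 0.08 in LCDM, -0.70 ± 0.08 in A2iL and -0.47 ± 0.08 in 2iL-F (adjusted p at most 0.0006). The third, Zfp655, rose as given above, while Zscan10 and Zfp207 fell. None of the 8 two-cell stage genes, the Zscan4 genes among them, stands in the lines that could be named.

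**Figure D4:**
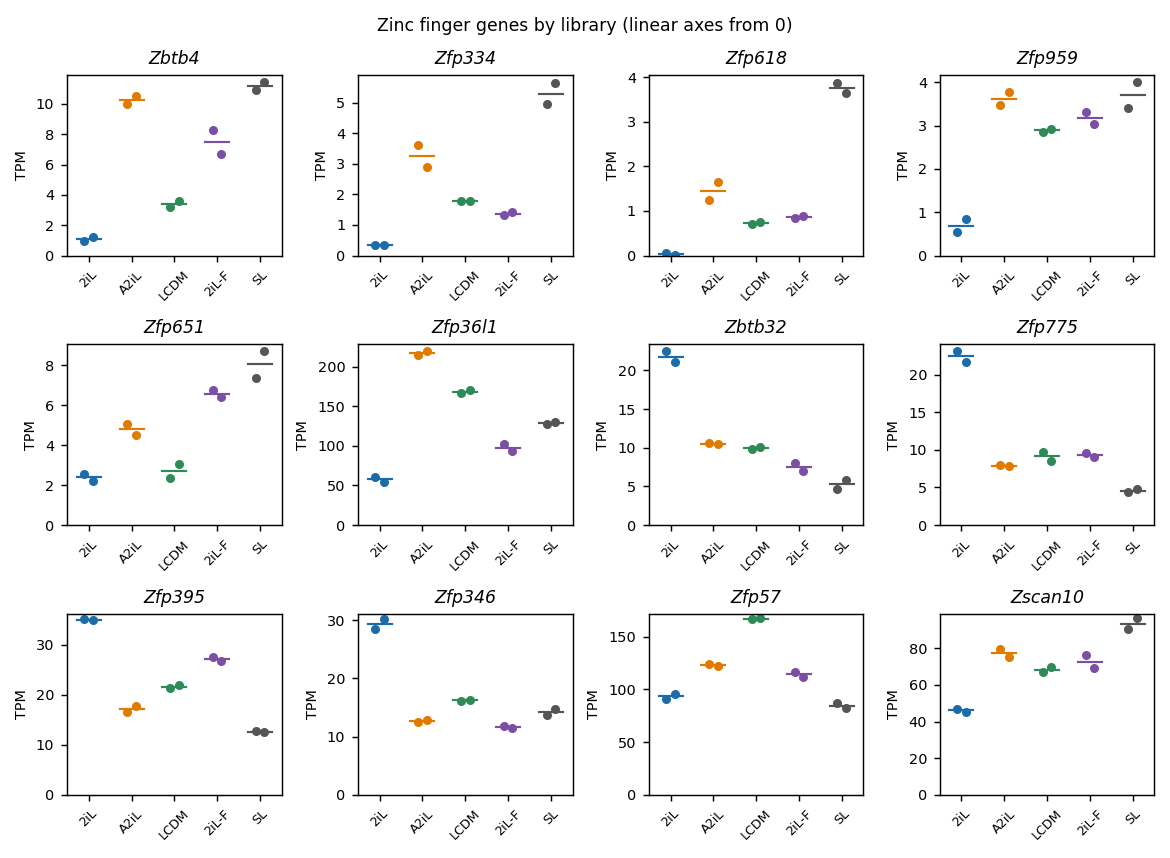
TPM of 12 zinc finger genes (vertical axes from 0, 1 panel per gene) in the 5 conditions (horizontal axis), with points for the 2 libraries of a condition and a line at their mean. Zbtb4, Zfp334, Zfp618 and Zfp959 are lowest in 2iL, Zbtb32, Zfp775, Zfp395 and Zfp346 are highest in it, Zfp36l1 is highest in A2iL and Zfp57 in LCDM.

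Of the 7 remaining genes with Zkscan and Zscan symbols, 0 were higher and 1 lower than in SL in 2iL (all lines 36.7% and 40.9%), and 2 and 0 in A2iL (21.9% and 31.9%). Zfp genes with a SCAN domain were not sought. The counts were 3 and 0 in LCDM (32.2% and 33.7%) and 0 and 1 in 2iL-F (28.1% and 37.3%), and Zkscan2 is among the higher ones in A2iL and LCDM. Zkscan2, the least abundant member, had 0.4196 and 0.523 TPM in 2iL, 0.936 and 0.762 in A2iL and 1.16 and 1.02 in LCDM. The values were 0.259 and 0.3499 TPM in 2iL-F and 0.4998 and 0.407 TPM in SL. A2iL and LCDM were above the rest. Because Zkscan2 passed the filter through its LCDM libraries alone, these levels are given with no test of their own. Its calls in A2iL and LCDM against SL, and in A2iL against 2iL-F, are also in the counts of the 96 genes. Zkscan17 had 36.9 and 39.3 TPM in LCDM and 31.7 and 34.4 TPM in SL, and Zkscan6 and Zkscan1 were within 1.46-fold over all conditions.

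Zfp36l1, which binds AU-rich elements of messenger RNA and speeds their decay (chr12:80107754-80113013, minus strand), was the most abundant of the 96 genes and differed in both directions. It had 61.1 and 54.2 TPM in 2iL, 215 and 220.4 in A2iL and 167 and 170.4 in LCDM. Both 2iL-F libraries gave 102 and 93.6 TPM, and SL gave 128 and 131 TPM. No condition overlapped another. Against SL it was higher by 0.38 ± 0.06 in LCDM and 0.75 ± 0.06 in A2iL (adjusted p at most 0.00085) and lower, at -1.15 ± 0.06 in 2iL and -0.40 ± 0.06 in 2iL-F (adjusted p at most 0.00062). Exons of a gene on the other strand cover 55.9% of its exon bases, and whether strand was used in counting is not given in the sources used here, so reads of both genes may not be separated.

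Genes of other RNA-binding and nucleolar proteins differed as well. Zfp346 (JAZ), which binds double-stranded RNA, had 28.5 and 30.2 TPM in 2iL, 12.5 and 12.8 in A2iL and 16.2 and 16.3 in LCDM. The 2iL-F libraries had 11.9 and 11.5 TPM and the SL libraries 13.8 and 14.7 TPM. The 2iL libraries stood alone, at 1.00 ± 0.06 (adjusted p = 5.2e-07) against SL. Zfp330, a nucleolar protein, had 32.2 and 35.1 TPM in 2iL and 17.3 and 17.8 TPM in SL, at 0.90 ± 0.07 (adjusted p = 3.4e-06). Of its 50-base words, 19.6% occur in another annotated gene. Zfp385a, which binds RNA and p53, averaged 70.1 ± 7.48 TPM in 2iL and 51.6 ± 0.837 TPM in SL (SD, n = 2 each), at 0.43 ± 0.09 (adjusted p = 0.0027). Zfp326, of the complex that joins RNA polymerase II to messenger RNA, was lower than in SL, at -0.64 ± 0.07 in 2iL, -0.71 ± 0.07 in A2iL and -0.81 ± 0.07 in 2iL-F (adjusted p at most 5e-05).

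Zfp618, a partner of Uhrf2 that binds hydroxymethylated DNA (chr4:62965573-63139708, plus strand), had the widest range, with 0.0469 and 0.0176 TPM in 2iL, 1.25 and 1.66 in A2iL and 0.707 and 0.746 in LCDM. Levels in 2iL-F were 0.831 and 0.896 TPM and those in SL 3.87 and 3.65 TPM. Zfp618 reached 1 TPM only in A2iL and SL, the conditions where it was highest, and entered the set through them. SL was above every other library and 2iL below, and the changes against SL were -2.20 ± 0.11 in 2iL, -1.46 ± 0.11 in LCDM, -0.96 ± 0.11 in A2iL and -1.35 ± 0.11 in 2iL-F (adjusted p at most 0.00011). With a pseudocount of 0.1 they were -4.88 in 2iL and -2.22 in LCDM. Zfp395, a factor that binds the huntingtin promoter, moved the other way, with 35.1 and 34.9 TPM in 2iL, 16.6 and 17.8 in A2iL and 21.3 and 21.9 in LCDM. In 2iL-F it was at 27.5 and 26.7 TPM and in SL at 12.6 and 12.5 TPM. Every condition was apart from the others, and the change against SL was 1.41 ± 0.05 in 2iL, 0.74 ± 0.05 in LCDM, 0.42 ± 0.05 in A2iL and 1.05 ± 0.05 in 2iL-F (adjusted p at most 0.0002). Zfp64 had 35.2 and 30.5 TPM in 2iL and 37.5 and 36.4 TPM in LCDM against 20.9 and 20.8 TPM in SL, its lowest condition. It was higher by 0.62 ± 0.07 in 2iL, 0.79 ± 0.07 in LCDM, 0.66 ± 0.07 in A2iL and 0.52 ± 0.07 in 2iL-F (adjusted p at most 0.00018). Zfp521, a regulator of neural and mesenchymal fates, was lowest in LCDM, at 0.964 and 0.961 TPM against 2.05 and 2.34 TPM in SL (-0.70 ± 0.10 (adjusted p = 0.00022), or -1.11 with a pseudocount of 0.1). These 4 and Zfp185 make up the mesenchymal and differentiation factors that could be read.

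Zfp775 (chr6:48602063-48623227, plus strand), whose role is little described, had 23.1 and 21.7 TPM in 2iL, 7.98 and 7.83 in A2iL and 9.76 and 8.53 in LCDM. The values were 9.603 and 9.09 TPM in 2iL-F and 4.41 and 4.74 TPM in SL. Both 2iL libraries were above all others and both SL libraries below them, with a mean 4.91-fold higher in 2iL. The changes were 2.07 ± 0.08 in 2iL, 0.86 ± 0.08 in LCDM, 0.68 ± 0.08 in A2iL and 0.89 ± 0.08 in 2iL-F (adjusted p at most 0.00013), and 12.3% of its exon bases lie under exons of the other strand. Zfp939, Zfp839 and Zfp263 were likewise highest in 2iL and lowest in SL, with changes of 1.27 ± 0.12 (adjusted p = 1.5e-05), 0.99 ± 0.08 (adjusted p = 3.1e-06) and 0.79 ± 0.06 (adjusted p = 1.9e-06) in 2iL. Zfp523 overlapped between 2iL and LCDM, at 17.1 and 14.9 TPM in 2iL and 14.8 and 16.9 TPM in LCDM against 7.75 and 9.13 TPM in SL. Its change in LCDM was 0.84 ± 0.10 (adjusted p = 0.00011). On the lower side, Zfp651 had 2.56 and 2.22 TPM in 2iL, 5.08 and 4.51 in A2iL and 2.38 and 3.05 in LCDM. Both 2iL-F libraries gave 6.74 and 6.404 TPM, and SL gave 7.36 and 8.74 TPM. 2iL and LCDM overlapped each other and lay below the rest, at -1.42 ± 0.12 in 2iL and -1.29 ± 0.12 in LCDM (adjusted p at most 1.9e-05) against SL, and A2iL was at -0.64 ± 0.12 (adjusted p = 0.0019). Zfp512b and Zfp142 were lowest in 2iL and highest in SL, at -1.12 ± 0.06 (adjusted p = 4.1e-07) and -0.95 ± 0.07 (adjusted p = 3.8e-06) in 2iL. Zfp651, like Zbtb4, was low in 2iL and LCDM, which had the lowest sums of fibroblast markers, and the part of the markers was not tested.

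The order of the marker sums, lowest in 2iL and next in LCDM, was found in 11 of the 96 genes (11.5%) and in 13.7% of the other named lines. The opposite, highest in 2iL and next in LCDM, was found in 14 genes (14.6%) and in 12.5% of the other lines.

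The same inhibitors under both feeder labels were compared as 2iL-F against 2iL. Here 26 genes were higher and 28 lower in 2iL-F (56.2%; all lines 61.7%, with 29.2% higher and 32.5% lower), and 41 of 54 calls held with each library left out. The fibroblast markers were at 4631 and 4449 TPM in 2iL-F and 854 and 900 TPM in 2iL, with 22 of 22 markers higher in 2iL-F and a median log2 change of 5.34 over the markers, and their part in the changes below was not tested. Zbtb4 was higher in 2iL-F by 2.03 ± 0.11 (adjusted p = 1e-06), and Zfp959 by 1.31 ± 0.11 (adjusted p = 1.5e-05), or 2.08 with a pseudocount of 0.1. Zfp651 was higher by 1.16 ± 0.12 (adjusted p = 4.3e-05), Zfp36l1 by 0.75 ± 0.06 (adjusted p = 1.6e-05) and Zscan10 by 0.65 ± 0.06 (adjusted p = 3e-05). Lower in 2iL-F were Zbtb32, at -1.43 ± 0.10 (adjusted p = 3.5e-06), and Zfp346, at -1.26 ± 0.06 (adjusted p = 3.5e-07). Zfp775 was at -1.18 ± 0.08 (adjusted p = 3.1e-06) and Zfp330 at -0.83 ± 0.07 (adjusted p = 1.4e-05). Zfp395 and Zfp64 differed less between both labels, at -0.36 ± 0.05 (adjusted p = 0.00039) and -0.10 ± 0.07 (adjusted p = 0.23), and the second did not pass. Zfp334 and Zfp618 were higher in 2iL-F by 0.83 ± 0.11 (adjusted p = 0.00019) and 0.85 ± 0.11 (adjusted p = 0.00015), which became 0.38 and 0.39 with quantile normalisation and 1.75 and 2.87 with a pseudocount of 0.1.

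The Src inhibitor in place of the MEK inhibitor was compared as A2iL against 2iL-F, whose feeder labels also differ. In A2iL 19 genes were higher and 19 lower (39.6%; all lines 45.3%, with 22.2% higher and 23% lower). Without A2iL replicate 3 this was 10 higher and 12 lower, and without A2iL replicate 5 it was 8 and 10. Without 2iL-F replicate 3 it was 9 and 12, and without 2iL-F replicate 5 it was 12 and 11. In all, 17 of 38 calls held with each of the 10 libraries left out. The fibroblast markers summed to 2718 and 2655 TPM in A2iL and 4631 and 4449 TPM in 2iL-F, with 7 of 22 markers higher and 13 lower in A2iL, and their part was not tested. Zfp36l1 was higher in A2iL by 1.15 ± 0.06 (adjusted p = 2.5e-06) and Zfp334 by 0.84 ± 0.11 (adjusted p = 0.0003). Zbtb7a was higher by 0.63 ± 0.05 (adjusted p = 2.5e-05) and Zfp7 by 0.57 ± 0.06 (adjusted p = 6.3e-05). Zfp395 was lower in A2iL, at -0.63 ± 0.05 (adjusted p = 2.3e-05), and so was Zfp282, at -0.63 ± 0.09 (adjusted p = 0.00064). Zbtb8a was at -0.60 ± 0.08 (adjusted p = 0.00056) and Zfp446 at -0.57 ± 0.10 (adjusted p = 0.0021). Zbtb32 was at 10.7 and 10.4 TPM in A2iL and 7.96 and 7.002 TPM in 2iL-F, at 0.45 ± 0.10 (adjusted p = 0.0052).

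The genes lie on 20 chromosomes, with 15 on chromosome 7 and 12 on chromosome 17, and 3 groups of at least 3 members had gaps of at most 500 kb. In the group of 4 at chr7:12415153-12985714, the changes in 2iL against SL were 0.52 ± 0.11 (adjusted p = 0.0021) for Zfp551, 0.38 ± 0.10 (adjusted p = 0.0084) for Zfp606, 0.31 ± 0.10 (adjusted p = 0.023) for Zfp446 and -0.35 ± 0.11 (adjusted p = 0.015) for Zfp324. With quantile normalisation those of Zfp551, Zfp606 and Zfp446 were 0.90, 0.64 and 0.63, and Zfp324 was at 0.00073 (adjusted p = 0.995). The call of Zfp324 was also lost without SL replicate 3 (adjusted p = 0.064) and without 2iL replicate 3 (adjusted p = 0.089). That of Zfp446 was lost without SL replicate 3 (adjusted p = 0.16), without 2iL replicate 5 (adjusted p = 0.13) and with only the libraries compared (adjusted p = 0.089). Zfp606, Zfp446 and Zfp324 had their highest mean in 2iL-F. Zfp446 had 3.51 and 3.41 TPM in 2iL-F and 1.67 and 2.14 TPM in SL. Zfp324 had 2.96 and 2.78 TPM in 2iL-F, 1.45 and 1.78 TPM in 2iL and 2.38 and 2.27 TPM in SL. In the group of 3 at chr13:21387003-21960779, Zfp184 had 6.14 and 8.28 TPM in 2iL and 3.94 and 4.84 TPM in SL, at 0.60 ± 0.13 (adjusted p = 0.0027), and its neighbours Zkscan3 and Zscan26 were at 0.19 ± 0.10 (adjusted p = 0.11) and 0.24 ± 0.10 (adjusted p = 0.061) and did not pass. In the group of 3 at chr17:21423227-21664966, Zfp54 had 1.18 and 0.9598 TPM in 2iL, 1.36 and 1.48 in A2iL and 0.893 and 0.748 in LCDM. The 2iL-F libraries had 0.473 and 0.771 TPM and the SL libraries 2.16 and 1.15 TPM, Zfp51 was within 1.23-fold over all conditions, and Zfp983 ranged from 0.505 to 2.08 TPM.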

How the data were processed

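Total RNA was purified with a Qiagen kit and sequenced from NEBNext Ultra libraries, per the labels' protocols. Bowtie2, RSEM, DESeq2, R 3.4.2 and the build mm10 are named in the submitters' processing notes. The deposited values are TPM, in 1 table, per the submitters' processing notes. The order of the rows was checked with gene families: on its own line, 5 TPM or more was reached by 97.8% of 91 housekeeping genes in the upper part of the table and by 44.44% of 63 below it, where 88.89% reached it on the next line. Genes were named only in the upper part.

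Log2(TPM + 1) was fitted with limma 3.58.1 (R 4.3.3; eBayes with trend), a mean per condition and all 10 libraries. The 14578 lines that reached 1 TPM in 2 libraries were tested. P-values are two-sided, with Benjamini-Hochberg adjustment over these lines within a comparison and a threshold of 0.05. Members and lists were chosen with earlier results of these data known. Genes were named when in a list, among the 15 of highest mean, or among the 10 largest changes in either direction of a comparison with both groups apart; the chromosomal groups, of at least 3 members, fall short of the 5 set for that rule and were chosen after seeing the data. On simulated data for 2iL against SL (14578 genes, 200 changed, 3 runs) the fit recovered 51.3%, 92%, 98.7% and 98.7% of changes of 0.5, 1, 2 and 3, with 5.72% of calls false. In the data 77.7% of all lines were called in that comparison, so these rates need not carry over. Alternatives were another pseudocount, other filters, 2 other scalings, robust eBayes, a replicate block, other sets of lines or libraries and each library left out. Coordinates and 50-base words, taken every 10 bases, are from GENCODE M21; Zfp939 was not found there by symbol. Promoters are from RefSeq, GRCm38.p6. Tables were made with Python 3.11.15, pandas 2.3.3 and matplotlib 3.10.9.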

Additional observations from a re-analysis of the deposited data

How the results depend on the processing

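With quantile normalisation 50 genes were higher in 2iL than in SL, against 32 as deposited; over all lines the higher share of the calls was 52.5%, against 47.3%. A filter of 5 TPM, which tests fewer genes, gave 18 genes lower in 2iL than in SL (28), 14 lower in LCDM than in SL (22) and 16 higher in 2iL-F than in 2iL (26). Leaving out 1 library at a time gave 69 to 81 genes in the F test. Higher and lower counts against SL were then 28 to 39 and 21 to 30 in 2iL, 15 to 23 and 12 to 19 in A2iL, 24 to 36 and 17 to 24 in LCDM, and 19 to 27 and 16 to 27 in 2iL-F. They were 23 to 33 and 22 to 32 in 2iL-F against 2iL, and 8 to 23 and 10 to 20 in A2iL against 2iL-F. With quantile normalisation, the sign in 2iL against SL changed for Zfp324 on chromosome 7, described with its neighbours. It also changed for Zfp40, at 0.00061 (adjusted p = 0.995) against -0.48 as deposited, and for Zfp418, at 0.073 (adjusted p = 0.57) against -0.33. Among the genes named for a comparison, the sign changed in 3 further values. Zfp521 in 2iL against SL was 0.12 (adjusted p = 0.28) with quantile normalisation. Zfp185 was not called in 2iL against SL or in 2iL-F against 2iL with all libraries. It had 5.27 and 8.44 TPM in 2iL and 7.10 and 6.59 TPM in SL. Its change in 2iL against SL was 0.27 without 2iL replicate 3 and -0.32 without 2iL replicate 5. In 2iL-F against 2iL it was 0.29 without 2iL replicate 5 and -0.30 without 2iL replicate 3. The cause was not tested. Replicate numbers did not pair the libraries, since deviations of same-numbered libraries correlated at -0.13 to 0.075 and 0 of 10 pairs were over 0.1; with the replicate block, 75 genes passed the F test, against 78. With 2 libraries per condition and unknown read numbers, small changes can be missed.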
